A study of Mus musculus with 20 samples.

Results

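Interferon-inducible GTPases are large GTP-binding proteins that cells make mainly after interferon reaches its receptors, and 9 of their genes are described here: Mx1, Mx2, Gvin1, Gbp2, Gbp3, Iigp1, Igtp, Irgm1 and Irgm2. They were picked by gene name from tables of 33581 genes, with their higher levels after Tcf7l2 knockdown already known, so differences between the hairpins are given for them as a description, and nothing is read from the counts of members past a threshold in them. All 9 are present in all 5 tables, and all 9 passed the filter on low counts, as 16497 genes did. The cells were 3T3-L1, a mouse preadipocyte line that turns into lipid-filled adipocytes in culture. The scrambled group carried a lentiviral scrambled hairpin (shRNA) as control, and the knockdown group carried 1 lentiviral hairpin directed at Tcf7l2, the gene of a nuclear effector of the Wnt pathway. Both groups were infected with lentivirus at low passage, kept as puromycin-selected mixed populations rather than clones, and differentiated without routine addition of a thiazolidinedione. With 1 hairpin against Tcf7l2, an effect of losing Tcf7l2 cannot be told apart from other effects of that hairpin. Nor can it be told apart from differences between the selected populations. RNA was sequenced at day 0, before differentiation, and at days 2, 4, 6 and 8, with 2 libraries per hairpin and day, which makes 10 groups and 20 libraries. Whether library 1 and library 2 stand for separate cultures is not stated in the labels, so the p-values below measure only the spread between these libraries, which may be technical.

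As background, interferons bind receptors at the cell surface, and Jak kinases there activate STAT proteins. STAT proteins join IRF9 on a DNA sequence called the interferon-stimulated response element, and pairs of STAT proteins bind a shorter STAT element, which type II interferon uses most. The Mx proteins resemble dynamin and trap incoming viruses, the guanylate-binding proteins (Gbp) assemble on the vacuoles of intracellular parasites and bacteria, Gvin1 is a very large interferon-induced GTPase, and the immunity-related GTPases divide into effectors such as Iigp1 (Irga6) and the regulators Igtp (Irgm3), Irgm1 and Irgm2, which hold effectors inactive on the cell's own membranes. Preadipocytes and other fibroblasts carry interferon receptors, so these genes can be induced in them without any immune cell.

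The promoters of those members with a promoter window are shown first, with the elements that interferon signalling uses marked in them. RefSeq promoter windows of 300 bases (250 before the start of transcription, build GRCm38.p6) were found for 5 of the 9 members, namely Gbp2, Gbp3, Igtp, Irgm1 and Irgm2, and no window was matched for the other 4. Capitals mark the response element, searched as GAAA, any 2 bases and GAAA, or as its reverse complement TTTC, any 2 bases and TTTC, and the STAT element, searched as TTC, any 3 bases and GAA, which reads the same on both strands.
Gbp2: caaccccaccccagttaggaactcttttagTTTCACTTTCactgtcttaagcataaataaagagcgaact
Gbp3: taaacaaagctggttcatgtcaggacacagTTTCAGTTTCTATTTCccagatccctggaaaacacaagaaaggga
Igtp: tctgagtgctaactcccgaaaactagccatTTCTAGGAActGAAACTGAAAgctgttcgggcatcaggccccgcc
Irgm1: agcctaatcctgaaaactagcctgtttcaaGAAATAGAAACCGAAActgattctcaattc
Irgm2: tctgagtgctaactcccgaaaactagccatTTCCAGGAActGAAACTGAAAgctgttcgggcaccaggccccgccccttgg
Each stretch is written 5′ to 3′ along the gene. They lie at chr3:142620574-142620643 on the plus strand, chr3:142559969-142560043 on the plus strand, chr11:58199481-58199555 on the plus strand, chr11:48871421-48871480 on the minus strand and chr11:58214872-58214952 on the plus strand. In Gbp2 the element begins 59 bases before the start of transcription. In Gbp3 a pair of overlapping matches begin 45 and 39 bases before it, and in Irgm1 an overlapping pair begin 30 and 24 bases before it. Igtp and Irgm2 carry the response element 34 and 64 bases before their starts, each with a STAT element just upstream, at 45 and 75 bases. These 5 members have 6 windows, since Gbp3 has another one, in which neither element was found. The response element was thus in 5 of 6 windows, against 3.44% of all 32851 windows, and the STAT element in 2 of 6, against 8.30% of all windows. Counted by gene, in any of its windows, 8 of 11 other interferon-inducible GTPases listed for comparison held the response element and 6 held the STAT element, and none of 10 dynamin-family genes outside the interferon response held the response element. Over the 60 bases that begin 40 before the response element and end 10 after it, Igtp and Irgm2 were identical at 59, whereas the next most alike pair, Gbp2 and Gbp3, matched at 27. Igtp and Irgm2 are neighbours on chromosome 11, and in GRCm38 annotation their exons share 162 bases, 8.01% of the exon length of Igtp and 4.39% of that of Irgm2, so a small part of their reads cannot be assigned to one of them. A match to these letters describes the sequence and does not show that a factor binds there.

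Library depth was 20153362 to 33973608 recovered reads, and levels are given as RPM, reads of a gene per 1000000 recovered reads, in which 3 reads, the floor used here, correspond to 0.0883 to 0.149 RPM. Tcf7l2 was lower in the knockdown libraries on every day, at 41.9 and 59.0 RPM in scrambled and 13.9 and 23.4 RPM in knockdown cells at day 0, and at 38.5 to 54.7 against 12.2 to 19.5 RPM from day 2 on, as the labels say, in all 20 libraries. Markers of fibroblasts and preadipocytes (7 genes) summed to 11508 to 44825 RPM in scrambled and 15427 to 41947 RPM in knockdown libraries. Adipocyte markers (7 genes, among them Adipoq and Fabp4) summed to 527 to 25735 RPM in scrambled and 310 to 4932 RPM in knockdown libraries, and all 7 were called lower in knockdown cells in the average of days. Of 13 leukocyte markers in the tables, 7 had at most 10 reads in every library, and Emr1, Tyrobp and Cd3e had 0 in all 20. The leukocyte list summed to 21.9 to 133 RPM in scrambled and 21.002 to 41.1 RPM in knockdown libraries, and to 2.06 to 11.1 RPM over 11 genes once Siglec1 and Itgam, chosen after their values were seen, were set aside. Within each arm the sum of the whole list was lowest at day 2, where the members were lowest too, at 21.9 and 22.3 RPM in scrambled and 21.002 and 22.3 RPM in knockdown libraries, and its highest library was library 2 of day 6, at 133 RPM in scrambled and 41.1 RPM in knockdown cells. At day 0 it was 30.8 and 26.9 RPM in scrambled and 26.4 and 23.3 RPM in knockdown libraries, and its part in the members' levels was not tested. Endothelial markers summed to 0.342 to 1.36 RPM.

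**Figure D1:**
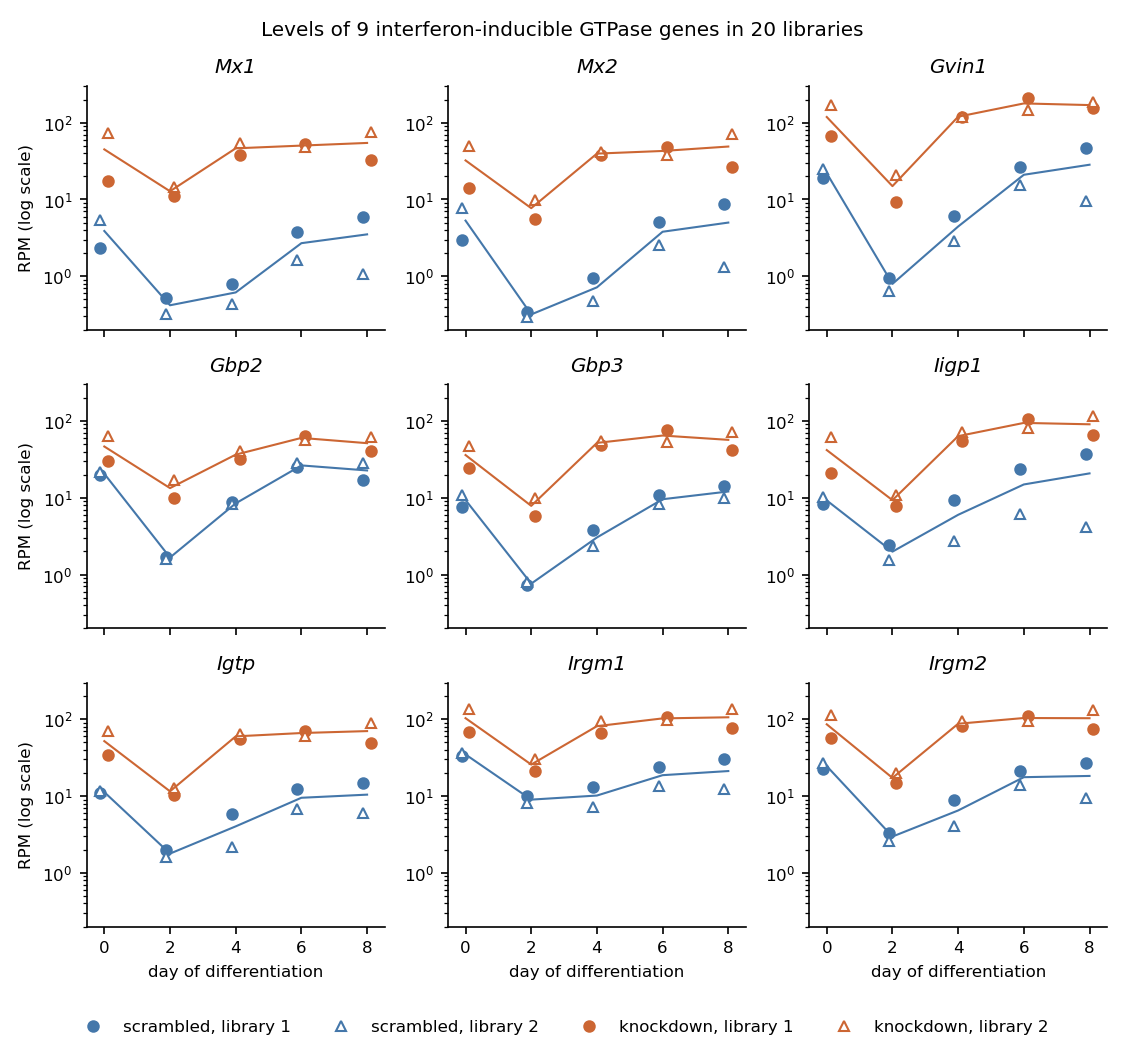
Level of each of the 9 genes in every library (RPM, log axis) against day of differentiation, with scrambled cells in blue and knockdown cells in orange. Symbols mark libraries 1 and 2, lines join the group means, and in each panel both knockdown libraries lie above both scrambled libraries at all 5 days, with the lowest scrambled mean at day 2.

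All 9 genes were higher in knockdown than in scrambled cells, with both knockdown libraries above both scrambled libraries on each of the 5 days. At a single day that separation held for 18.9, 20.7, 19.7, 28.5 and 23.9% of all tested genes (days 0, 2, 4, 6 and 8), and at all 5 days for 3.85%, but since the members were chosen from these contrasts nothing is read from their count. The ratio of mean RPM, knockdown over scrambled, had a median over the members of 4.52, 8.01, 14.8, 6.75 and 5.64 (days 0, 2, 4, 6 and 8). Day 4 gave the widest ratio for 8 of the 9 genes, and for Gbp2 it was day 2. In bulk RNA, more cells expressing a gene and more RNA per cell cannot be told apart.

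Mx1, the nuclear antiviral GTPase that blocks influenza viruses, had the widest ratios of the 9. In scrambled cells its levels were 2.33 and 5.45 (day 0), 0.516 and 0.324 (day 2), 0.791 and 0.442 (day 4), 3.78 and 1.61 (day 6) and 5.96 and 1.07 (day 8) (RPM, library 1 and library 2 of each day). In knockdown cells they were 17.2 and 72.6 (day 0), 10.95 and 14.6 (day 2), 37.9 and 54.8 (day 4), 52.2 and 48.4 (day 6) and 32.99 and 75.9 (day 8). The scrambled values at day 2 rested on 12 and 11 reads, and the highest scrambled library, library 1 of day 8, stayed below the lowest knockdown library, library 1 of day 2. The ratio of means was 11.5 at day 0, 75.1 at day 4 and 15.5 at day 8. On the deposited log2 scale, which compresses low levels, the difference was 3.93 at day 4 (SE 0.555) and 2.98 (SE 0.286) averaged over days.

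Mx2, its cytoplasmic relative, is annotated in GRCm38 as a polymorphic pseudogene, a gene that is intact in some mouse strains and not in others. Its levels were 2.93 and 7.69 (day 0), 0.344 and 0.294 (day 2), 0.963 and 0.474 (day 4), 5.07 and 2.53 (day 6) and 8.67 and 1.33 (day 8) RPM in scrambled cells. They were 14.3 and 50.2 (day 0), 5.62 and 9.80 (day 2), 37.7 and 41.4 (day 4), 47.8 and 37.8 (day 6) and 26.9 and 70.9 (day 8) RPM in knockdown cells. The course was that of Mx1, with the lowest scrambled values at day 2 on 8 and 10 reads, but across days the arms met, since library 2 of scrambled day 0 and library 1 of scrambled day 8 lay above library 1 of knockdown day 2. The log2 difference was 3.68 (SE 0.571) at day 4, a 55.04-fold ratio of means, and 2.53 (SE 0.299) on average.

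Gvin1, on chromosome 7, had 18.9 and 25.03 (day 0), 0.945 and 0.648 (day 2), 6.05 and 2.84 (day 4), 26.3 and 15.6 (day 6) and 47.01 and 9.66 (day 8) RPM in scrambled cells. In knockdown cells it had 66.5 and 170.4 (day 0), 9.18 and 20.7 (day 2), 119.8 and 119 (day 4), 209 and 147 (day 6) and 154 and 185 (day 8) RPM. The scrambled libraries were below 1 RPM at day 2 and above 9 RPM at days 6 and 8, and the lowest knockdown libraries, those of day 2, lay no higher than the upper scrambled library of day 0. The log2 difference was 4.05 (SE 0.529) at day 4 and 2.71 (SE 0.284) on average. The reads of Gvin1 came to 95.7 to 100% of those of another gene, Gm4070, in the same library (median 98.4%). Their sequences were not compared, and how reads that match both were counted is not given. The level of Gvin1 alone is therefore uncertain.

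Among the guanylate-binding proteins, Gbp2 showed the smallest average difference between the hairpins of all members and Gbp3 a larger one. Gbp2 stood at 19.6 and 21.5 (day 0), 1.72 and 1.62 (day 2), 8.74 and 8.18 (day 4), 24.8 and 27.9 (day 6) and 17.00 and 28.4 (day 8) RPM in scrambled cells. In knockdown cells it stood at 30.1 and 62.8 (day 0), 9.87 and 16.8 (day 2), 32.01 and 40.8 (day 4), 64.6 and 55.7 (day 6) and 40.04 and 62.7 (day 8) RPM. The arms did not overlap within a day, yet the nearest libraries at day 0 differed only 1.40-fold, and the log2 difference was 0.94 (SE 0.316) at day 0, 1.75 at day 4 and 1.24 (SE 0.143) on average.

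Gbp3, its neighbour on chromosome 3, stood at 7.69 and 10.99 (day 0), 0.730 and 0.795 (day 2), 3.75 and 2.34 (day 4), 10.97 and 8.18 (day 6) and 14.3 and 9.89 (day 8) RPM in scrambled cells. In knockdown cells it stood at 24.5 and 47.4 (day 0), 5.72 and 9.97 (day 2), 48.03 and 55.5 (day 4), 75.9 and 53.2 (day 6) and 42.00 and 71.4 (day 8) RPM. At day 4 both scrambled libraries were below their day 0 levels and both knockdown libraries above theirs. The log2 difference was 3.18 (SE 0.297) at day 4, where the nearest libraries of the arms differed 12.8-fold, and 2.05 (SE 0.205) on average.

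Iigp1, the effector of the immunity-related GTPases on chromosome 18, had the largest standard error of the 9 in the difference between the hairpins. Scrambled cells had 8.19 and 10.3 (day 0), 2.45 and 1.53 (day 2), 9.29 and 2.72 (day 4), 23.7 and 6.16 (day 6) and 37.4 and 4.16 (day 8) RPM. Knockdown cells had 20.9 and 62.6 (day 0), 7.85 and 10.8 (day 2), 54.5 and 72.3 (day 4), 107 and 81.3 (day 6) and 65.02 and 116 (day 8) RPM. Its scrambled libraries of days 6 and 8 were far apart, with library 1 above the lower knockdown library of day 0 and library 2 below both libraries of day 0 of its own arm. The log2 difference was 2.95 (SE 0.711) at day 4 and 2.13 (SE 0.328) on average.

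The 3 regulators on chromosome 11, Igtp, Irgm1 and Irgm2, each had their lowest mean of either arm at day 2. Irgm2 had 22.2 and 26.8 (day 0), 3.35 and 2.59 (day 2), 8.94 and 4.04 (day 4), 21.3 and 13.9 (day 6) and 26.99 and 9.56 (day 8) RPM in scrambled cells. In knockdown cells it had 57.3 and 114 (day 0), 14.7 and 19.8 (day 2), 81.02 and 93.7 (day 4), 111 and 96.3 (day 6) and 75.6 and 131 (day 8) RPM. Only at day 2 did its knockdown libraries lie below the scrambled level of day 0. The log2 difference of Irgm2 was 3.26 (SE 0.393) at day 4 and 2.19 (SE 0.225) on average.

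Igtp ranged from 1.59 to 14.9 RPM over the 10 scrambled and from 10.3 to 90.5 RPM over the 10 knockdown libraries, with a log2 difference of 2.24 (SE 0.221) on average. Irgm1 ranged from 7.10 to 36.3 and from 21.3 to 137 RPM, with 1.92 (SE 0.213) on average. Both genes had their lowest library of each arm at day 2, apart from Irgm1 in scrambled cells, where it was library 2 of day 4. Scrambled cells of days 6 and 8 had 53.7 and 60.8% of the day 0 mean of Irgm1 and 84.4 and 92.7% of that of Igtp, and the difference between the genes was not tested.

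**Figure D2:**
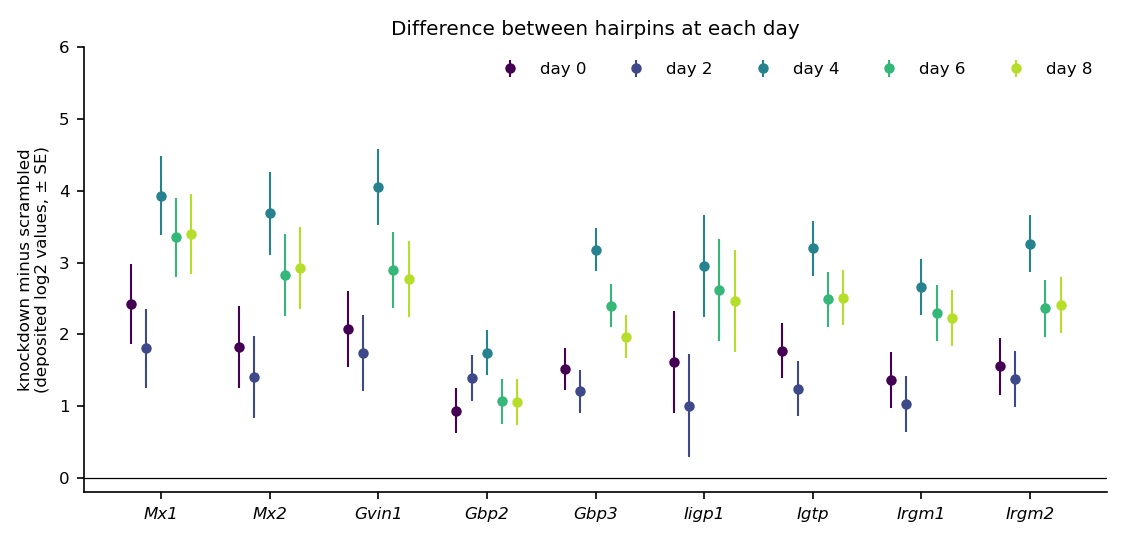
Knockdown minus scrambled difference of each gene at each day, in deposited log2 units, with error bars of 1 SE from a fit that shares the spread of a gene over all 10 groups. All 45 differences are above 0, and in these units day 4 is the largest for each of the 9 genes. Each day was transformed on its own, so sizes are not comparable between days. The ratio of mean RPM of Gbp2 was 8.01 at day 2 and 4.31 at day 4.

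The same fit called 0 members higher at day 0 (0.145% of all tested genes were called higher), 0 on day 2 (0.188%), 8 members on day 4 (1.41%), 7 members on day 6 (2.68%), 7 members on day 8 (3.39%) and 9 in the average of days (12.3%), with limma and Benjamini-Hochberg adjustment at 0.05, and nothing is read from these counts. With the replicate number as a block, 1 member was called at day 0 and 1 at day 2. Without the 6 libraries numbered 2 of days 4, 6 and 8, 3 were called at day 4 and 0 at day 8. The day 6 count became 1 when scrambled library 2 of day 6 was left out, 1 when knockdown library 1 was and 3 when knockdown library 2 was. The day 8 count became 2 when scrambled library 2 of day 8 was left out and 1 when knockdown library 2 was. The day 0 count became 2 when knockdown library 1 of day 0 or either scrambled library of day 8 was left out. In the authors' deposited table, the log2 fold change of Mx1 was 0.43 at day 0 and 4.88 at day 4. That of Gbp2 was 0.71 and 1.87, and that of Iigp1 was 2.33 at day 4 and 0.77 at day 8. For Mx1 at day 0 the fit used here gave 2.42, so the estimates are unlike there. The authors' adjusted p (DESeq2) for the members ran from 1.29e-06 (Igtp) to 0.707 (Mx2) at day 0. At day 2 it ran from 1.07e-35 (Mx1) to 2.94e-08 (Irgm1), and nothing is read from these p-values either.

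The second question was how the genes changed as the cells differentiated. The choice of members did not use this contrast, but it used differences between the hairpins that hold the same libraries. A wide difference on a day can favour a low scrambled level on that day, and the size of that effect was not tested. Within scrambled cells all 9 genes were lower at day 2 than at day 0, each with both day 2 libraries below both day 0 libraries (37.5% of all tested genes were), and 6 of the 9 passed the test (13.5% of all tested genes were called lower). Changes are log2 differences of recovered reads scaled over all 20 libraries, tested with limma voom and adjusted over all 16497 genes. The members' median change was -3.09, against 0.02 over all genes tested. The comparisons of different days with day 0 in one arm share the same day 0 libraries.

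Gvin1 changed most, by -4.72 on the log2 scale (SE 1.09, adjusted p = 0.00723), to 3.63% of its day 0 mean. Gbp2 changed by -3.53 (SE 0.564, adjusted p = 0.000718), to 8.13%, and Gbp3 by -3.50 (SE 0.662, adjusted p = 0.00223), to 8.17%. Both guanylate-binding protein genes thus lost more than 9 in 10 of their day 0 reads. Irgm2 changed by -2.98 (SE 0.587, adjusted p = 0.00287) and Igtp by -2.58 (SE 0.660, adjusted p = 0.0124). Irgm1, the least reduced of those that passed, changed by -1.88 (SE 0.474, adjusted p = 0.0116), to 25.8% of day 0. Mx1 (-3.09, SE 1.44, adjusted p = 0.137), Mx2 (-3.83, SE 1.51, adjusted p = 0.0806) and Iigp1 (-2.20, SE 1.20, adjusted p = 0.203) had differences in the same direction with larger standard errors and did not pass limma's test. Without scrambled library 2 of day 2 the adjusted p was 0.0878 for Gvin1, 0.114 for Igtp and 0.107 for Irgm1, which left 3 calls. Without scrambled library 2 of day 0 those of Igtp (0.0569) and Irgm1 (0.0622) ended, and without scrambled library 1 of day 2 that of Igtp (0.0534) did, while Mx2 passed without knockdown library 1 (0.0475) or 2 (0.0470) of day 0.

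Knockdown cells had their lowest levels at day 2 as well. All 9 genes were below day 0 in both libraries (37.9% of all tested genes were), and 6 passed the test, Gbp2, Gbp3, Gvin1, Igtp, Irgm1 and Irgm2 (8.66% of all tested genes were called lower). The members' median change was -1.85, against 0.03 over all genes tested. Gvin1 changed by -2.80 (SE 0.603, adjusted p = 0.00701), to 12.6% of its day 0 mean, and Gbp3 by -2.04 (SE 0.387, adjusted p = 0.00322), to 21.8%. Gbp2, the gene with the smallest loss among the 9 as a share of day 0, changed by -1.62 (SE 0.374, adjusted p = 0.0103), to 28.7%. Irgm2 changed by -2.11 (SE 0.425, adjusted p = 0.00481), Igtp by -1.95 (SE 0.435, adjusted p = 0.00844) and Irgm1 by -1.80 (SE 0.409, adjusted p = 0.00951), all with limma voom. Differences of Mx1 (-1.36, SE 0.639, adjusted p = 0.180), Mx2 (-1.74, SE 0.712, adjusted p = 0.123) and Iigp1 (-1.85, SE 0.829, adjusted p = 0.158) did not pass limma's test. With the replicate number as a block in limma voom these 3 passed (adjusted p = 0.0487, 0.0459 and 0.0275), which made 9 of 9. The labels do not give that pairing of days, which was read from correlations between days as low as 0.10.

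The knockdown result leaned on single libraries. Without knockdown library 1 of day 2, 0 of the 9 genes passed (the smallest adjusted p from limma voom was 0.05003), and without knockdown library 2 of day 0, which is the higher of that pair for every member, only Gbp3 did (Gvin1 0.0639, Gbp2 0.1005, Igtp 0.0809, Irgm1 0.0950 and Irgm2 0.0505 as adjusted p from limma voom). Without knockdown library 1 of day 0, Mx1 (0.0205) and Mx2 (0.0314) passed too. Whether the fall at day 2 differs in size between the arms was not tested. Beside this, Col1a1, a collagen of fibroblasts, was at 3936 and 9990.2 RPM at day 0 and 1866 and 1660.4 RPM at day 2 in scrambled cells, and at 4855 and 9684 and 3579 and 3032 RPM in knockdown cells. The part of Col1a1 and of the leukocyte markers, whose sum was also lowest at day 2, in the members' fall was not tested.

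**Figure D3:**
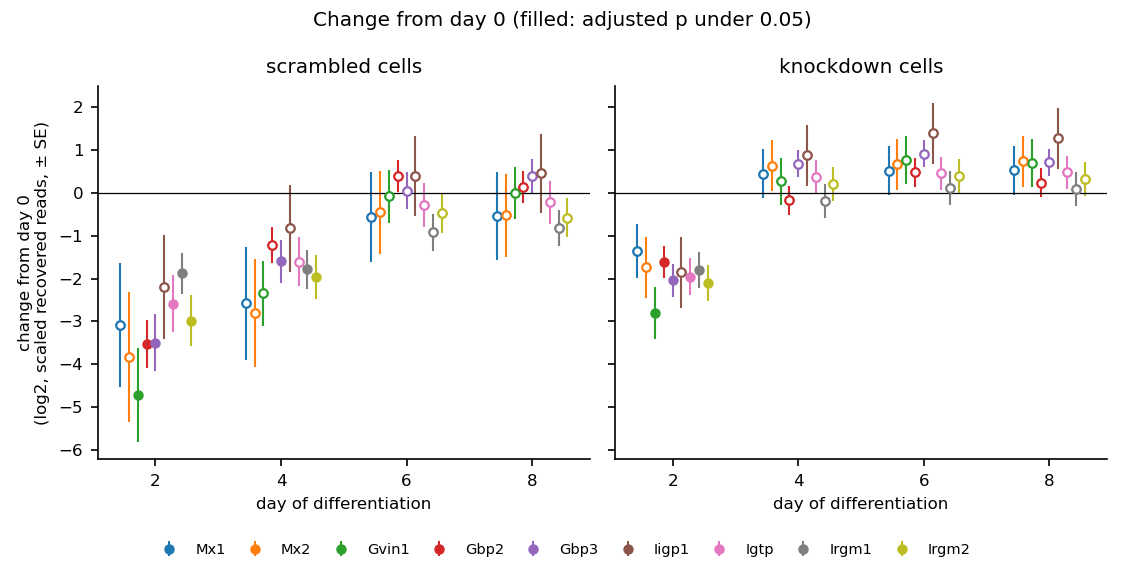
Change of each gene from day 0 (log2 of scaled recovered reads, limma voom), with error bars of 1 SE, for scrambled cells on the left and knockdown cells on the right; filled symbols have an adjusted p under 0.05. At day 2 all 18 values are below 0; at days 4, 6 and 8 no knockdown value passes.

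At day 4 each arm was again set against its own day 0. In scrambled cells 8 of 9 genes were still below day 0 in both libraries (31.7% of all tested genes were), and 3 passed the test, against 7.29% of all tested genes called lower. Those were Irgm1 (-1.79, SE 0.463, adjusted p = 0.0243), Irgm2 (-1.97, SE 0.512, adjusted p = 0.0245) and Gbp3 (-1.60, SE 0.497, adjusted p = 0.0479), and the members' median was -1.79 by limma voom. Irgm1 and Irgm2 did not pass without scrambled library 1 of day 0 (adjusted p = 0.0784 and 0.0661), without library 2 of day 0 (0.106 and 0.117) or without library 2 of day 4 (0.242 and 0.257). Gbp3 did not pass when any 1 of 14 libraries was left out, namely either library of either arm at days 2, 4 and 6 (adjusted p = 0.0511 to 0.337) or either scrambled library of day 0 (0.0809 and 0.224), nor with no filter on low genes (0.0605). Gvin1 (-2.34, SE 0.755, adjusted p = 0.0547), Gbp2 (-1.22, SE 0.416, adjusted p = 0.0664) and Igtp (-1.60, SE 0.575, adjusted p = 0.0779) did not pass. The count of members called was 0 without the 6 libraries numbered 2 of days 4, 6 and 8, and 5 without either knockdown library of day 0 or either scrambled library of day 8.

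In knockdown cells at day 4 the members were at 78.4 to 152% of their day 0 means, 0 of 9 passed in either direction (3.12% of all tested genes were called), and 0 of 9 were below day 0 in both libraries (31.5% of all tested genes were). The median change was 0.38. At days 6 and 8, 0 of 9 passed in scrambled cells (changes of -0.93 to 0.39 at day 6 and -0.82 to 0.45 at day 8; 18.3 and 10.7% of all tested genes were called in either direction) and 0 of 9 in knockdown cells (0.10 to 1.38 and 0.09 to 1.27; 0.612 and 0.673% of all tested genes were called in either direction). At an unadjusted p under 0.05 with limma voom, 0 members passed in scrambled cells at either day, and 0, 1 and 1 in knockdown cells at days 4, 6 and 8. A p that misses the threshold does not show that the levels had returned to those of day 0.

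Ordering the 10 groups by mean level, the lowest was scrambled day 2 for 9 of 9 genes and the highest was knockdown day 6 or day 8 for 9 of 9. The members were chosen for higher levels in knockdown cells, so the place of the arms in the order is a description only. The share of all tested genes with the same lowest or highest group was not counted, so nothing is read from these counts. Many neighbours in that order overlapped in their libraries: of the 9 neighbouring pairs per gene, 5 overlapped for Gvin1, Gbp2, Gbp3 and Irgm1, 6 for Mx1, Mx2, Igtp and Irgm2, and 8 for Iigp1. For Mx1 the order from the lowest was scrambled days 2, 4, 6, 8 and 0 and then knockdown days 2, 0, 4, 6 and 8, so the arms did not mix. The scrambled groups of days 6, 8 and 0 overlapped there, as did the knockdown groups of days 0, 4, 6 and 8.

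The 2 libraries of a group were not alike for these genes. The share of all tested genes higher in the same library was not counted, so nothing is read from the counts of members in either arm. In scrambled cells, library 1 was higher than library 2 for 9 of 9 genes at day 4, 8 at day 6 and 8 at day 8, with median ratios of 2.03, 1.77 and 2.82. Iigp1 differed most, 3.42-, 3.84- and 8.97-fold, and Gbp2 was the exception at days 6 and 8, where library 2 was 1.13- and 1.67-fold higher. The same library 2 held more adipocyte RNA: Fabp4 was 3.65-, 2.71- and 6.37-fold and Adipoq 3.22-, 1.52- and 3.68-fold higher in library 2 than in library 1 at days 4, 6 and 8. Its part in the difference between the libraries was not tested.

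In knockdown cells the pattern was another one. Library 2 was higher for 9 of 9 genes at day 0 (1.93- to 4.23-fold, Gbp3 to Mx1), at day 2 (1.23- to 2.25-fold) and at day 8 (1.20- to 2.64-fold), and library 1 was higher for 9 of 9 at day 6 (1.08- to 1.43-fold). Fabp4 was 2.09-fold higher in library 2 at day 8 and 1.94-fold higher in library 2 at day 6, so here the members lay above in the library with more Fabp4 at day 8 and below in it at day 6. Set number against number, the difference between the hairpins at day 8 was 5.53-fold for Mx1 between the libraries numbered 1 and 71.2-fold between those numbered 2, and for Iigp1 1.74-fold and 27.8-fold.

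**Figure D4:**
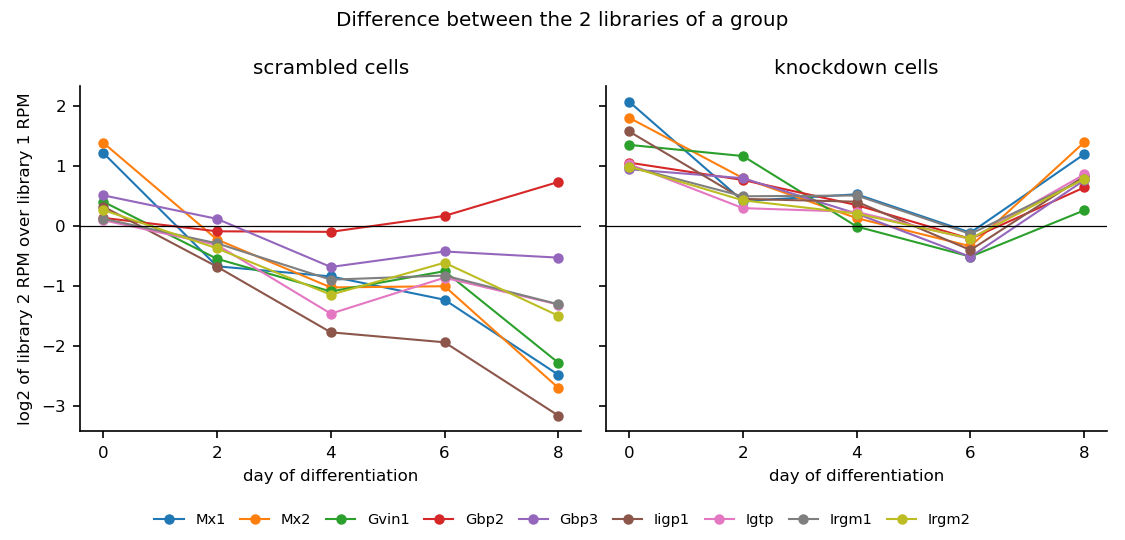
Log2 ratio of library 2 to library 1 (RPM) for each gene and day, scrambled cells on the left and knockdown cells on the right. In scrambled cells the lines of 8 genes run below 0 from day 4 on while Gbp2 lies above it at days 6 and 8, and in knockdown cells all 9 lines are above 0 at days 0, 2 and 8 and below 0 at day 6.

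The remaining interferon-inducible GTPases of the mouse were counted next. Of 27 listed genes 23 were in the tables and 22 were tested, and all 22 were higher in knockdown cells in the average of days, with a median log2 difference of 1.58 (12.3% of all tested genes were called higher, and the median of all was 0.00). By day the counts were 2, 0, 17, 19 and 18 of 22 at days 0 to 8. Of all tested genes 0.145, 0.188, 1.41, 2.68 and 3.39% were called higher on those days. Gbp9 had scrambled libraries at 0.559 to 10.8 RPM (median 3.36) and knockdown libraries at 8.09 to 65.6 RPM (median 39.2), a log2 difference of 2.39 (SE 0.203, adjusted p = 7.19e-07) with limma, and Gbp4, a further guanylate-binding protein, differed by 1.94 (SE 0.164, adjusted p = 7.13e-07). Gbp6 differed by 1.78 (SE 0.179, adjusted p = 4.29e-06) and Gbp8 by 1.47 (SE 0.151, adjusted p = 5.07e-06) in the same limma fit. This list, like the members, was chosen with earlier results of these data known, and these calls come from the same contrast. They are therefore no independent support for the members' difference. The list includes Gm4070, whose read counts nearly equal those of Gvin1, and close copies such as Tgtp1 and Tgtp2, whose reads may be shared. In the time course 13 of the 22 were called lower at day 2 in scrambled cells and 14 in knockdown cells (13.5 and 8.66% of all tested genes). At days 6 and 8, 0 were called lower in either arm. Of all tested genes 18.3 and 10.7% in scrambled and 0.612 and 0.673% in knockdown cells were called there in either direction. These shares count both directions, unlike the count of the list, so they are not compared with it.

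Interferon receptors and the proteins that carry or limit their signal were counted as well. Whether their levels changed before those of the members or along with them was not tested. Of 20 genes 19 were tested, and 9 were higher and 2 lower in the average of days, with a median of 0.18. Among all tested genes 12.3% were called higher and 13.2% lower. Usp18, which shuts off the type I receptor, had scrambled libraries at 0.344 to 10.5 RPM (median 5.49) and knockdown libraries at 3.66 to 86.5 RPM (median 39.1), and differed by 2.11 (SE 0.261, adjusted p = 2.88e-05) with limma. Irf7, which amplifies type I interferon production, differed by 1.94 (SE 0.212, adjusted p = 9.33e-06), Irf9, the DNA-binding partner of the STATs, by 1.46 (SE 0.151, adjusted p = 5.43e-06), and Irf1, which acts at many of these promoters, by 0.66 (SE 0.0563, adjusted p = 7.13e-07). Outside the naming rule and chosen after their values were seen, Stat2 differed by 1.4998 (SE 0.188, adjusted p = 3.22e-05) in that limma fit, and the 2 lower genes were Irf3 (-0.27, SE 0.0620, adjusted p = 0.00518) and the receptor gene Ifngr1 (-0.48, SE 0.165, adjusted p = 0.0407). One of these 2 lower calls ended without scrambled library 2 of day 2, 4, 6 or 8, without knockdown library 2 of day 2, or without either knockdown library of day 4, 6 or 8, each of which left 1.

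Interferon genes themselves were near the limit of detection. Of 13 ligand genes in the tables, 12 had at most 10 reads in every library (the most was 5), and 4 of them had 0 reads in all libraries. The one that was tested, Ifnz, had a log2 difference of 0.11 (adjusted p = 0.509, limma). At this depth a low level of interferon RNA could not be detected, so its absence is not shown.

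Genes related to the members in structure or by a partner, but not known as interferon-induced, were set beside them. In the average of days 12.3% of all tested genes were called higher and 13.2% lower. Counts of 1 or 2 among 10 genes lie near these shares, so nothing is read from them. Of 10 genes of the dynamin superfamily, whose proteins shape membranes, 1 was higher (Dnm2, dynamin of endocytosis, 0.17, SE 0.0533, adjusted p = 0.0302) and 1 lower (Mfn2, which fuses mitochondria, -0.39, SE 0.128, adjusted p = 0.0343) in the average of days with limma, and the median was -0.06. Opa1 (-0.30, SE 0.134, adjusted p = 0.109) and Atl3 (-0.22, SE 0.104, adjusted p = 0.134) did not pass limma's test. Of 10 genes of the Atg8 conjugation system, which directs these GTPases to vacuoles, 1 was higher (Gabarap, 0.17, SE 0.0552, adjusted p = 0.0336) and 2 lower (Atg16l1, -0.30, SE 0.0877, adjusted p = 0.0197; Atg7, -0.39, SE 0.118, adjusted p = 0.0239), with a median of -0.08, and Map1lc3b (0.11, SE 0.0532, adjusted p = 0.132) did not pass limma's test. The call of Dnm2 ended without knockdown library 2 of day 4, 6 or 8 or scrambled library 1 of day 6 (adjusted p = 0.0563 to 0.0622), and that of Atg7 without knockdown library 1 of day 6 or 8 (0.0515 and 0.0518). Mfn2 lost its call without scrambled library 2 of day 2, 4, 6 or 8, knockdown library 1 of day 4, 6 or 8, or knockdown library 2 of day 6 or 8 (0.0529 to 0.0692). Gabarap lost its call without scrambled library 2 of day 0, 2 or 4, scrambled library 1 of day 2, knockdown library 1 of any day, or knockdown library 2 of day 2 or 4 (0.0509 to 0.0647), and Map1lc3b passed without knockdown library 2 of day 0 (0.0479).

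**Figure D5:**
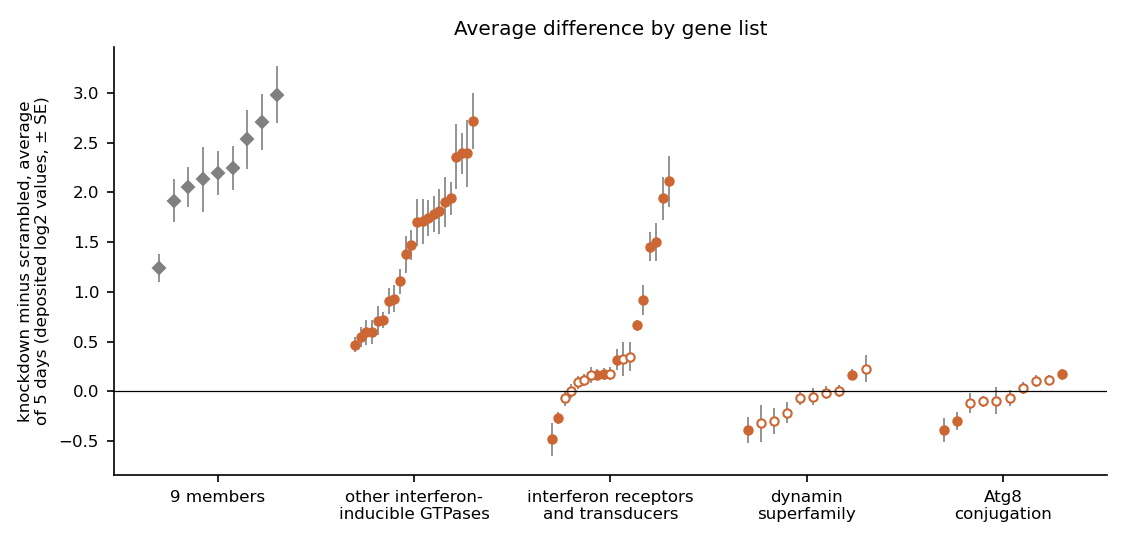
Average log2 difference, knockdown minus scrambled, of each tested gene by list, with error bars of 1 SE. Filled circles have an adjusted p under 0.05, open circles do not, and the 9 members are grey diamonds because no test is read from them; all 22 other interferon-inducible GTPases lie above 0.

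The genes most like each member were found by the mean absolute difference of centred log2(RPM + 0.5) profiles over the 20 libraries, searched over 16496 other tested genes. These profiles include the difference between the hairpins from which the members were chosen, so the values are a description. For Mx1, whose own profile spanned 6.54 log2 units, the nearest were Ifit1 (0.306), Mx2 (0.316) and Oasl2 (0.401), and for Mx2 Isg15 (0.279), Oasl2 (0.289) and Ifit1 (0.295). Igtp was nearest to Irgm2 (0.140), Xaf1 (0.160) and Bst2 (0.204), and Irgm2 to Igtp (0.140), Xaf1 (0.144) and Bst2 (0.208), so the neighbours on chromosome 11 were each other's nearest profile. Irgm1 was nearest to Trim30a (0.204), Oas1b (0.216) and Herc6 (0.217). For Gbp2 the nearest were Gbp1 (0.367), Gbp6 (0.427) and Gbp11 (0.435), all of its own family, whereas Gbp3 was nearest to Irf7 (0.234), D14Ertd668e (0.253) and Apol9a (0.254). Iigp1 was nearest to Sp100 (0.304), Gm7592 (0.343) and D14Ertd668e (0.351). Gvin1 was nearest to Gm4070 (0.00638), 9130208D14Rik (0.288) and Apol9a (0.390), the first being the gene with nearly the same reads. Members held 3 of the 27 places, and 14 of the 27 places held the same gene when the pseudocount was 2 RPM instead of 0.5.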

How the data were processed

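Per the labels' protocols, RNA was sequenced with the TruSeq RNA Sample Prep Kit V2 from 3T3-L1 cells with a Tcf7l2 or a scrambled hairpin. Per the submitters' processing notes, the authors used TopHat2 2.0.13, Bowtie2 2.2.3.0 and SAMtools with the mm9 build, and DESeq2 1.10.1. The read counter and its use of strand are not given in the sources used here. Deposited by the authors was 1 table per day with variance-stabilised log2 values per library, each table transformed on its own. Per the file headers, the authors' tables also hold a mean normalised count (a signal), a log2 fold change with its SE, a test score, a p-value and an adjusted p-value. The deposited log2 value of 0 reads was 5.00 to 6.94, so low levels are compressed. There were 0 unused columns of libraries.

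Reads were recovered by inverting the transformation: of values up to 100 reads, 100% lay within 0.02 of a whole number. Tests covered the 16497 genes whose mean normalised count reached 10 in any table. Knockdown contrasts used limma 3.58.1 (trend, robust, statmod 1.5.0, R 4.3.3) on the deposited log2 values with a mean per group (10 residual degrees of freedom), or hairpin plus day for the average (14), in which libraries of a hairpin count as independent although they share a selected population. Changes from day 0 used limma voom on recovered reads scaled by the median of ratios over 20 libraries. Benjamini-Hochberg adjustment ran over all tested genes, with calls at 0.05. The code was tested on simulated data.

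The members and lists were chosen with earlier results of these data known. The text names all members, Tcf7l2, up to 4 genes per list with the smallest adjusted p in the average of days, and the 3 nearest profiles per member. The labels number both hairpins' libraries 1 and 2. Differences between libraries 1 and 2 correlated across genes between the hairpins at r = 0.78, 0.70, 0.55, 0.54 and 0.47 (days 0 to 8), read as pairing within a day. Across days they correlated at 0.10 to 0.52 in knockdown cells and 0.02 to 0.76 in scrambled cells, where the numbers were therefore not taken as pairing days. The block fit has 5 residual degrees of freedom for knockdown contrasts. Libraries of a group were not copies of each other (Spearman 0.963 to 0.993). Alternatives were other filters, scalings and fits, the block, and leaving out each library, and leaving out the 6 libraries numbered 2 of days 4, 6 and 8 was added after seeing the data. Promoters are RefSeq windows of GRCm38.p6, and exons are those of GRCm38 annotation. No coordinates of the authors' mm9 build are given.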

Additional observations from a re-analysis of the deposited data

Results flagged for a closer look

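Gbp3 lay below its day 0 levels in both scrambled libraries of day 4 and above them in both knockdown libraries. The scrambled libraries went from 7.69 and 10.99 RPM to 3.75 and 2.34 RPM, whereas the knockdown libraries went from 24.5 and 47.4 to 48.03 and 55.5 RPM. By limma voom the change was -1.60, SE 0.497, adjusted p = 0.0479, in scrambled cells, a call that ended when any 1 of 14 libraries was left out, and 0.68, SE 0.320, adjusted p = 0.350, in knockdown cells, which did not pass. The change in knockdown cells minus that in scrambled cells was 2.14 on a log2 scale of RPM ratios. The difference between the changes was not tested. Members were chosen for their difference between the hairpins, which enters this value.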

How the results depend on the processing

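Of the results for members, 6 calls at day 2 in scrambled cells and 6 in knockdown cells, and the 22 calls among other interferon-inducible GTPases, moved by no more than 1.5-fold with other filters, scalings and fits of all libraries or without the 6 libraries numbered 2 of days 4, 6 and 8. That last alternative was chosen after seeing the data. Values of single genes were recomputed 2737 times in all, of which 2556 were counted as unchanged. Outside the members' differences between the hairpins, this means the same direction and side of the threshold. For those differences no threshold was used, so changes in the members' calls are not counted there. The one change of direction was that of Iigp1 at day 4 in scrambled cells, -0.83 with all libraries, -1.68 to 0.034 without single libraries (0.034 without scrambled library 2 of day 4) and 0.032 without the 6 libraries. The causes of the changes below were not tested. Few reads lie behind several scrambled values of day 2 (12 and 11 for Mx1, 8 and 10 for Mx2, 17 and 27 for Gbp3 and 22 and 22 for Gvin1), which limits their precision.

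With the replicate block, whose pairing was read from correlations and not from the labels, genes called for the hairpin numbered 132, 128, 512, 2967 and 2817 at days 0 to 8 (37, 44, 266, 679 and 948 without it), and members 1 at day 0 and 1 at day 2. From day 0, the block gave 6221, 5671, 6064 and 5015 genes in scrambled cells (4075, 2310, 3013 and 1763 without it) and 4429, 1473, 742 and 607 in knockdown cells (2544, 515, 101 and 111 without it). In scrambled cells it gave 6 members at day 4, adding Gvin1, Gbp2 and Igtp, and 1 at day 6. It moved no other count of members by more than 1.5-fold. A separate fit per table called 0, 264, 111, 52 and 0 genes at days 0 to 8, with 9 members at day 2 and 0 at day 8. Voom on recovered reads called 105, 436 and 535 genes at days 2, 6 and 8, with 2 members at day 2.

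Without the 6 libraries, the hairpin contrast called 132, 86, 54 and 243 genes at days 0, 2, 4 and 8 and 2794 in the average (4195 with them), with 1, 3 and 0 members at days 0, 4 and 8. From day 0 it called 1124, 1191 and 582 genes in scrambled cells at days 4, 6 and 8, with 0 members at day 4, and 217 in knockdown cells at day 6. The list of receptors and transducers then had 1 lower gene, the dynamin list 0 higher and 0 lower, and the Atg8 list 0 higher and 1 lower. With no filter the receptors had 1 lower and the Atg8 list 0 higher. Where 1 library stood alone in a group, its spread was taken from the other groups.

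Leaving out each library in turn, genes called for the hairpin ranged over 3 to 67, 7 to 61, 115 to 378, 93 to 2330 and 115 to 3766 at days 0 to 8. Members ranged over 0 to 2, 0 to 0, 7 to 9, 1 to 9 and 1 to 8, and over 9 to 9 in the average, where genes ranged over 3037 to 4626. From day 0, genes ranged over 1758 to 4618, 471 to 3275, 158 to 4712 and 221 to 4347 in scrambled cells and over 1161 to 2971, 153 to 729, 0 to 234 and 0 to 207 in knockdown cells. Members ranged over 3 to 7 and 0 to 5 at days 2 and 4 in scrambled cells and over 0 to 8 at day 2 in knockdown cells, and stayed at 0 elsewhere. The receptors ranged over 6 to 10 higher and 1 to 2 lower, the dynamin list over 0 to 1 higher and 0 to 1 lower, the Atg8 list over 0 to 2 higher and 1 to 2 lower, and the other GTPases over 22 to 22.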
